A study of Mus musculus with 8 samples.

Results

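Receptors for serotonin, dopamine, noradrenaline and adrenaline, and the muscarinic receptors for acetylcholine, form a set of 31 autosomal mouse genes, and their H3K27me3 was compared here between wild-type (WT) and MommeD43 neural stem cells (NSCs). H3K27me3 is the trimethyl mark of lysine 27 on histone H3. The measured items were regions around H3K27me3 peaks, and a region was assigned to a receptor when it overlapped the gene body or the 5 kb on either side by at least 1 base. By this rule 25 of the 31 genes had a region, and 33 of the 11707 autosomal regions (of 13585 in all) belonged to the set. No region was assigned to more than 1 receptor. The rule used positions only, with no measured values.

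The cells were female NSCs on a C57BL/6J background, derived from cortices of E14.5 embryos and kept below 10 passages. The WT cells were Smchd1GFP+/+ and the mutant cells Smchd1GFPMommeD43/MommeD43, so both genotypes carried the GFP fusion at Smchd1, and they differed in the MommeD43 missense change of SMCHD1, a chromatin protein involved in X chromosome inactivation. For each genotype, 3 independent cell lines gave 1 H3K27me3 ChIP library each, and 1 line also gave a whole-cell extract (WCE) library. The values of the ChIP libraries were available as 1 mean per genotype on a log2 scale, so every difference below compares 2 pooled values, has no SD and no test, and measures no variation between cell lines. The cultures are dividing progenitors and not the neurons in which most of these receptors act. As a check of the cell type, the progenitor genes Sox2, Vim, Fabp7 and Notch1 lay in no region, 6 of the 10 progenitor markers did lie in one, and so did 4 of 5 neuronal markers and all 7 of 7 genes of other lineages such as Gata4 and Myod1, where 42.6% of autosomal protein-coding genes did. The neuronal count includes Dcx and Syp, which lie on the X chromosome and outside the autosomal share. The Syp region had a log2 difference of -0.07, and the 3 Dcx regions had 0.15 to 1.09. The 10 autosomal regions of the neuronal markers, 9 of them in Rbfox3 and 1 at Tubb3, were all higher in MommeD43 (57.7% of autosomal regions were). Their median log2 difference was 0.62, or 0.29 relative to regions of similar GC content and value. Of the regions of other lineages 7 of 7 were higher, with a median of 0.34, or 0.11 relative to similar regions. Of the progenitor markers 5 of 6 were higher, with a median of 0.21, or -0.04 relative to similar regions. The highest difference was 1.39 at T for other lineages and 1.18 at Pax6 for progenitors. The part of these markers in the receptor results was not tested. H3K27me3 is not a measure of expression, so this does not establish the cell type.

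H3K27me3 is written by the Polycomb complex PRC2 and marks genes that are held silent, often genes of other lineages or of later stages, and it gathers at starts rich in the dinucleotide CpG. The receptors of this set are read out in differentiated neurons, glia and peripheral tissues. Nearly all are G protein-coupled: Gs members raise cyclic AMP, Gi members lower it and Gq members release intracellular calcium. Htr3a and Htr3b are the exception, as they encode subunits of a serotonin-gated cation channel.

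The DNA before the RefSeq start of 7 of these genes shows the range of sequence behind the results. Each line gives up to 250 bases that precede the RefSeq start, 5′ to 3′ on the strand of the gene, in the GRCm38.p6 build, without bases that GENCODE places in an exon. Every CpG is in capitals. Chrm4 and Htr1a had the highest differences in favour of MommeD43, Drd2 differed between its start and its 3′ end, Chrm2 was lower in MommeD43, Htr3b had a region at its start but few CpGs, and Adrb1 and Drd3 had no region. The stretches lie at chr2:91921939-91922188 (+) for Chrm4, chr9:49340153-49340402 (+) for Drd2, chr13:105443443-105443638 (+) for Htr1a, chr6:36387834-36388083 (+) for Chrm2, chr9:48964991-48965240 (-) for Htr3b, chr19:56721867-56722116 (+) for Adrb1 and chr16:43761971-43762207 (+) for Drd3. The RefSeq start of Drd3 lies 8195 bp inside the gene as GENCODE draws it, so by GENCODE the Drd3 stretch is intronic. That of Chrm4 lies 5060 bp before the GENCODE gene.
Chrm4: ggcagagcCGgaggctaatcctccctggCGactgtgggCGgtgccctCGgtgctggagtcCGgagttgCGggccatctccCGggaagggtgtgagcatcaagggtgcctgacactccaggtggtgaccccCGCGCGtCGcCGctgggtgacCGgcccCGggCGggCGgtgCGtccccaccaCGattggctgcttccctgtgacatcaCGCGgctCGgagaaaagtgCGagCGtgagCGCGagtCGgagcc
Drd2: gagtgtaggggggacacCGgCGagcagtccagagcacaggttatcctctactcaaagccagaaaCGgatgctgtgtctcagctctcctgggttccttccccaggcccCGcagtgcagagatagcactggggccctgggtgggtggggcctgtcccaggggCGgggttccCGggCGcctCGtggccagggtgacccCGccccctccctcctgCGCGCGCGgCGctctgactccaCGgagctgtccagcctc
Htr1a: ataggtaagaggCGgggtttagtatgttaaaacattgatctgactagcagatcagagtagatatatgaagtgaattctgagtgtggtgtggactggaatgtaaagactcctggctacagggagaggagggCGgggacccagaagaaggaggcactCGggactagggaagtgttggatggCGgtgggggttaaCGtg
Chrm2: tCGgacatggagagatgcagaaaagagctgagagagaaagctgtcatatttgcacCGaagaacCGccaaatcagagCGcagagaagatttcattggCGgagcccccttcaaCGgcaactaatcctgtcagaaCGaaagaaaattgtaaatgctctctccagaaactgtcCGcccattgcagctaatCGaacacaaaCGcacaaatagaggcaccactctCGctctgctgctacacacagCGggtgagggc
Htr3b: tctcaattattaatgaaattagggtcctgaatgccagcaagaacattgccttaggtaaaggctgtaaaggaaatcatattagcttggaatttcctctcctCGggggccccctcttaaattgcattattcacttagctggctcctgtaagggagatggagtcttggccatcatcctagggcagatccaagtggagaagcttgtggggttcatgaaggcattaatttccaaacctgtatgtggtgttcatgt
Adrb1: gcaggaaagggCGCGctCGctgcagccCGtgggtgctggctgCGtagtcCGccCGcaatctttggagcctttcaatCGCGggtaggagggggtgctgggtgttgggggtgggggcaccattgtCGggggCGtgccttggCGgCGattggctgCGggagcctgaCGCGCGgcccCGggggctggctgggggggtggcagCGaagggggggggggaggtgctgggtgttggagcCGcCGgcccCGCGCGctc
Drd3: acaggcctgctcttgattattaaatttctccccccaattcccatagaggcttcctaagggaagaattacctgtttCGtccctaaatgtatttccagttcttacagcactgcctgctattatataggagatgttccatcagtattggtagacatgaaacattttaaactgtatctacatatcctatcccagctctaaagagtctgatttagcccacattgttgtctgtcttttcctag

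The stretch shown held 26 CpGs for Chrm4, 24 for Adrb1, 15 for Drd2, 12 for Chrm2, 5 for Htr1a, 1 for Htr3b and 1 for Drd3. Windows of 300 bases around the start, from 250 bases before it to 50 after it, were found in RefSeq for 24 of the 31 genes, and where a gene had several, the one nearest the outermost GENCODE start was used. Among the 16 genes whose window start lay in a region, the median number of CpGs was 19.5, with a range of 2 to 46 (Htr7, a Gs-coupled serotonin receptor, had the 46). Among the 8 whose start lay in none, the median was 7.5, with a range of 2 to 28. These include the Drd3 window, with 2 CpGs, which lies inside the GENCODE gene and also enters the counts by CpG number below. The same contrast ran through the genome at a smaller size, with a median of 12 CpGs in the 8134 autosomal windows that started in a region and 6 in the 23262 that did not.

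CpG-rich receptor starts nearly all lay in a region. Of the 9 receptor windows with 20 or more CpGs, 8 lay in a region, where 32.3% of all such autosomal windows did. The exception was Adrb1, the beta receptor of the heart, with 28 CpGs and its nearest region 86488 bp away. At the other end, 1 of 5 receptor windows with 0 to 4 CpGs lay in a region (Htr3b, with 2), against 15.5% of all windows. Between these, 4 of 4 windows with 5 to 9 CpGs and 3 of 6 with 10 to 19 lay in one, where the shares over all windows were 28.2% and 36.4%. These counts are small and describe the letters of a window, not a binding site. They take 1 window per receptor gene, whereas the shares take all autosomal windows, with several for some genes.

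Most receptor genes lay in or near an H3K27me3 region: 25 of 31 had one, where 42.6% of 20780 autosomal protein-coding genes did. In 24 genes a region held an annotated start of a protein-coding transcript, where 30.4% of those genes had such a region. The shares are descriptions, with no test of the difference. All classes of transmitter took part. A region was found for 10 of 13 serotonin receptors, 4 of 5 dopamine receptors, 7 of 8 adrenoceptors and 4 of 5 muscarinic receptors. By signalling, it was found for 6 of 7 Gs-coupled, 11 of 14 Gi-coupled and 6 of 8 Gq-coupled receptors and for both channel subunits. Genes coded in 1 exon, a structure common in this family, had a region in 11 of 15 cases, and those with more coding exons in 14 of 16.

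The 6 genes without a region came from every transmitter class. They were Htr1b and Htr1f (Gi-coupled), Htr2b (Gq-coupled), Drd3 (Gi-coupled), Adrb1 (Gs-coupled) and Chrm3 (Gq-coupled). Their nearest regions lay 224073 bp from Htr1b, 585429 bp from Htr1f, 184581 bp from Htr2b, 506319 bp from Drd3 and 781636 bp from Chrm3. The regions are made around called peaks, so signal at these genes that gave no peak in either genotype was not measured here. Chrm5 was the one gene reached by its flank alone, by a region that ended 2482 bp from the gene, and 19 genes had 1 region, 5 had 2 and Adra1b had 4.

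**Figure D1:**
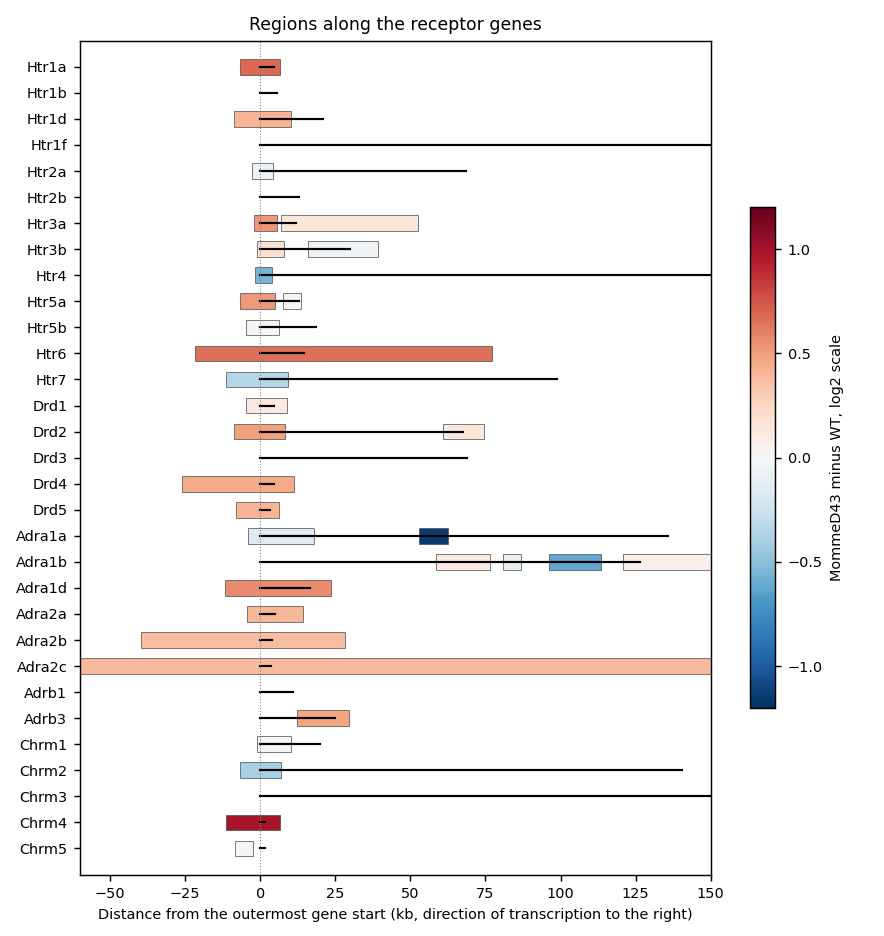
Regions (bars) along the 31 receptor genes (black lines), as distance in kb from the outermost gene start with transcription to the right, each bar coloured by the log2 difference between MommeD43 and WT (red higher, blue lower in MommeD43). The plot is cut at -60 and 150 kb, which clips the Adra2c and Adra1b regions and the longest genes, and it shows bars at most starts and none at Htr1b, Htr1f, Htr2b, Drd3, Adrb1 and Chrm3.

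Levels between genes were compared per kb of region, as normalized counts (reads scaled by library size) divided by region length. The median over the 33 regions was 47.8 per kb in WT and 48.7 in MommeD43, above the medians of 36.0 and 37.0 over all autosomal regions. The receptor regions were also longer, with a median of 17000 bp against 10400 bp. Their depth followed from both, at a median of 235 reads per library in WT and 339 in MommeD43 (geometric means recovered from the values), with the lowest at 55.7 and 46.8 reads. The smallest counting error that these reads allow for a log2 difference (a Poisson SE) was 0.01 to 0.17, with a median of 0.07.

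In WT the densest receptor regions were those assigned to adrenoceptors that couple to Gi, which act as presynaptic brakes on transmitter release, and to Adra1d. A density is a mean over the whole region, of which Adra2b is 5.9% and Adra2c 0.763%. Adra2a carried 142 normalized counts per kb in WT and 188 in MommeD43, more than any other receptor region in either genotype and at the 97.9th percentile of autosomal regions in each. Adra1d followed in WT with 113 and had 167 in MommeD43. Adra2c carried 110 and 144, and Adra2b 103 and 133. In MommeD43 Chrm4 ranked among these, with 143. The sparsest in WT were Chrm1, with 27.3 in WT and 26.8 in MommeD43, and Htr2a, with 27.4 and 26.1, both Gq-coupled receptors of cortical neurons.

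**Figure D2:**
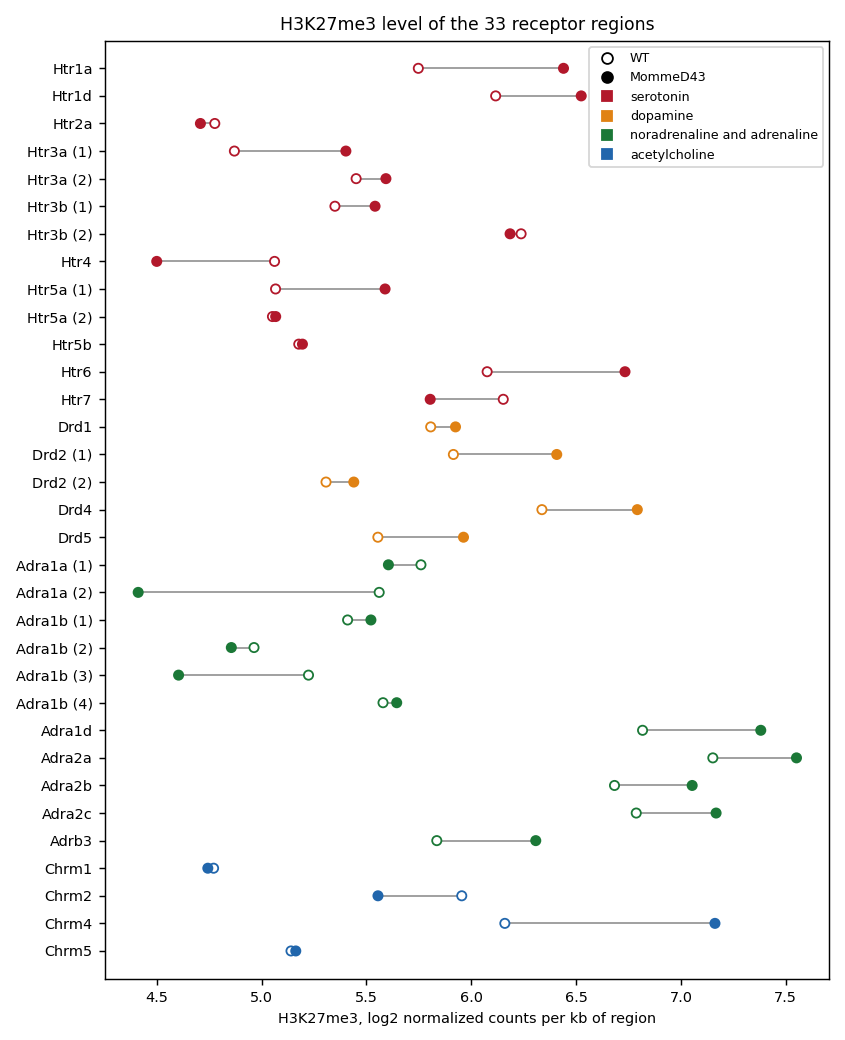
H3K27me3 level of each of the 33 receptor regions in WT (open circles) and MommeD43 (filled circles), as log2 normalized counts per kb of region, with colours for the transmitter and numbers in brackets for several regions of 1 gene in the direction of transcription. Each circle is the authors' mean over 3 libraries with no error, and the Adra2a, Adra1d, Adra2c and Adra2b regions reach the highest levels in WT.

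Over the whole set the median difference between genotypes was small. This difference, MommeD43 minus WT on the log2 scale, had a median of 0.13 with quartiles of -0.05 and 0.45, where the autosomal median was 0.08 with quartiles of -0.21 and 0.33. The value was higher in MommeD43 in 23 regions and lower in 10, against 57.7% higher and 42.3% lower over autosomal regions. This split depends on how the columns are scaled: with both columns set to the same total over the regions, which moves all differences by -0.24, it became 14 higher and 19 lower (autosomal shares 32.9% and 67.1%), and the median -0.11. Counting error alone left 15 regions higher (autosomal share 37.9%), 6 lower (25.1%) and 12 inside their 95% counting interval. At a change of 1 on the log2 scale, 1 region was higher (2.28% of autosomal regions) and 1 lower (2.93%).

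Differences in this table moved with GC content, at receptors as elsewhere, and the part of base composition in any single difference was not tested. Over the 33 regions Spearman's rho between GC content and difference was 0.52, and over the 11707 autosomal regions it was 0.58, in points that share the same 2 pooled columns. From the tenth of autosomal regions with the lowest GC content to that with the highest, the median difference went from -0.61 to 0.39. Each receptor region was therefore set against the 200 other autosomal regions nearest to it in GC content and mean value, and the adjusted difference is its own difference minus their median. A common rescaling of a column leaves this quantity as it is. Over the 33 regions its median was 0.05, with 17 above 0 and 16 below, where 49.8% of autosomal regions were above 0 and their median was -0.00.

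Against their neighbours in GC content and value, the receptor regions spread to both sides. The difference lay above the upper quartile of the 200 neighbours in 11 regions (25.4% of autosomal regions did) and below the lower quartile in 5 (25.1%). An adjusted difference of at least 1 was found in 1 region, at Htr1a (autosomal share 1.73%), and one of -1 or less in 1 region, in an intron of Adra1a (0.752%). With 33 regions these counts stay close to the autosomal shares and are not read as a result about the receptors as a group. The members are described by transmitter in what follows.

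**Figure D3:**
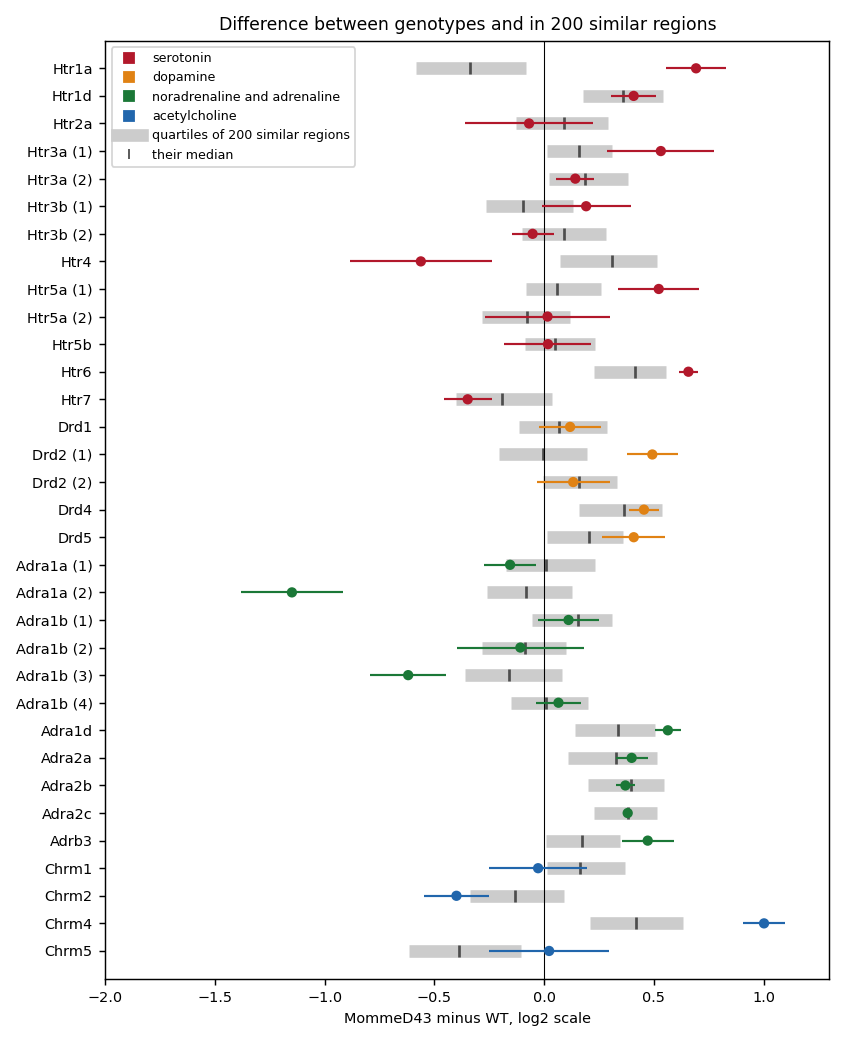
MommeD43 minus WT on the log2 scale for each receptor region (points, with the 95% counting interval as lines), beside the median (tick) and quartiles (grey bar) of the 200 autosomal regions most alike in GC content and mean value. Htr1a, Chrm4 and the start of Drd2 lie to the right of their grey bars, and Htr4 and the second region of Adra1a lie to the left.

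Among serotonin receptors the highest difference was at Htr1a, the inhibitory autoreceptor of serotonin neurons, whose whole 4484 bp gene lay inside chr13:105437001-105450250. Its value was 9.48 in WT and 10.17 in MommeD43, a difference of 0.69 (counting SE 0.07). The density went from 53.7 to 86.8 normalized counts per kb. MommeD43 was the higher genotype at a region of low GC content (41.6%), where most regions had the opposite sign: the 200 neighbours had a median difference of -0.34 with quartiles of -0.58 and -0.08, and the adjusted difference was 1.03. The related Htr1d, another Gi-coupled receptor of presynaptic terminals, showed no such departure. Its start region chr4:136414851-136433800 had 10.36 in WT and 10.77 in MommeD43, and the difference of 0.41 was 0.05 above its neighbours.

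Htr4, a Gs-coupled receptor of brain and gut, was the serotonin receptor with the lowest difference. The region over 1 of its 4 coding starts, chr18:62322501-62327950, had 7.51 in WT and 6.95 in MommeD43, a difference of -0.56 (SE 0.17). Similar regions had a median difference of 0.31, and the adjusted difference was -0.87. This was the region with the fewest reads of the set, 55.7 per library in WT and 46.8 in MommeD43, and its interval was accordingly the widest, from -0.89 to -0.24.

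The other Gs-coupled serotonin receptors had differences of opposite sign. Htr6, an almost exclusively neuronal receptor, lay in the broad region chr4:138998301-139097350, which also covers the genes Tmco4 and Nbl1 (a secreted BMP antagonist). It had 12.71 in WT and 13.36 in MommeD43, a difference of 0.66 (SE 0.02) and an adjusted difference of 0.24, and only 14.6% of its length was Htr6. Htr7, with the most CpG-rich start, had 10.51 in WT and 10.16 in MommeD43 at chr19:36048351-36068800. The difference was -0.35 (SE 0.06) where that of its neighbours was -0.19, so the adjusted difference was -0.15.

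Of the remaining serotonin receptors, Htr2a and Htr5b lay inside their counting intervals and the start of Htr5a did not. Htr2a, the Gq-coupled receptor on which psychedelic drugs act, had 7.57 in WT and 7.51 in MommeD43 at its start chr14:74638101-74645050. Htr5b had 8.64 and 8.65 at chr1:121522101-121533100. Htr5a, like Htr5b a Gi-coupled receptor, had 8.64 in WT and 9.16 in MommeD43 at its start chr5:27835251-27847150, a difference of 0.52 (SE 0.09) and 0.47 after adjustment. The second Htr5a region, chr5:27849801-27855700, did not share this difference, with 7.61 and 7.63.

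The channel subunits Htr3a and Htr3b are neighbours on chromosome 9, each with a region at its start and one further along. At the start of Htr3a (chr9:48905451-48913300) the value was 7.84 in WT and 8.37 in MommeD43, a difference of 0.53 (SE 0.12) and 0.37 after adjustment. At the start of Htr3b (chr9:48957201-48966100) it was 8.50 and 8.70, a difference of 0.19 (SE 0.10) whose counting interval reached from -0.01 to 0.39. The regions further along were denser and differed less. That of Htr3a (chr9:48858651-48904300) had 10.96 in WT and 11.11 in MommeD43, and the sign of this difference turned with equal totals and with the GC or the value trend removed. That of Htr3b (chr9:48925851-48949150) had 10.78 and 10.73. Over all 13 serotonin receptor regions the median difference was 0.14, and 0.05 after adjustment, but -0.10 with equal column totals and -0.02 with the value trend removed.

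All 5 regions of dopamine receptors were higher in MommeD43, as were 57.7% of autosomal regions, with a median difference of 0.41, which was 0.09 after adjustment. With equal column totals 3 of the 5 were higher (32.9% of autosomal regions were), and 4 with the GC or the value trend removed. Drd1 and Drd5 are Gs-coupled, and Drd2 and Drd4 Gi-coupled. Drd2, the autoreceptor of dopamine neurons and the target of antipsychotic drugs, stood furthest from similar regions: its start chr9:49331751-49348750 had 10.00 in WT and 10.50 in MommeD43, a difference of 0.49 (SE 0.06) where the neighbours had -0.01. At its 3′ end (chr9:49401351-49415050) the values were 9.08 and 9.22, a difference of 0.13 (SE 0.09) inside its counting interval. Drd5 (chr5:38311401-38325700) had 9.39 in WT and 9.80 in MommeD43, 0.21 above its neighbours.

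Drd1, the main receptor of the direct striatal pathway, differed by less than its counting interval. It had 9.58 in WT and 9.70 in MommeD43 at chr13:54046851-54060550. Drd4 had 11.56 and 12.01 at chr7:141265851-141303100, a difference of 0.45 (SE 0.03) that was 0.09 after adjustment. The Drd4 region also covers Irf7, Cdhr5, Sct and Deaf1, and Drd4 itself is 12% of it.

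The Gq-coupled adrenoceptors, which contract smooth muscle and raise excitability in neurons, held the lowest difference of the set. An intronic region of Adra1a without exon bases, chr14:66688251-66697750, had 8.81 in WT and 7.66 in MommeD43, a difference of -1.15 (SE 0.12), and its density was 47.2 normalized counts per kb in WT and 21.3 in MommeD43. Similar regions had a median difference of -0.08, with quartiles of -0.26 and 0.13, and the adjusted difference was -1.07. In MommeD43 this was the sparsest region of the set, at the 10.5th percentile of autosomal density against the 74.6th in WT. At the start of the same gene (chr14:66631251-66653200) the values were 10.22 and 10.06, and the adjusted difference was -0.16.

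Adra1b had 4 regions and a like pattern in 1 of them. The region that holds 1 of its 3 coding starts, chr11:43824651-43842700, had 9.58 in WT and 9.70 in MommeD43. A region within an intron, chr11:43787901-43805200, had 9.34 and 8.72, a difference of -0.62 (SE 0.09) and of -0.46 after adjustment. The other intronic region, chr11:43814301-43820500, had 7.60 and 7.49, and that at the 3′ end, chr11:43749201-43780450, had 10.55 and 10.61, both inside their counting intervals. The outermost start of Adra1b, with 3 CpGs in its window, lay in no region, whereas the inner RefSeq start that lay in one had 28. Adra1d (chr2:131538651-131574100), whose whole gene is covered, was the member of this subgroup with a higher value in MommeD43 beyond counting error, with 11.96 in WT and 12.53 in MommeD43. The difference was 0.56 (SE 0.03) and 0.23 after adjustment.

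The 3 Gi-coupled adrenoceptors had like differences, close to those of their neighbours and above 0 under all 5 other scalings and corrections tried. Adra2a (chr19:54039651-54058450) had 11.38 in WT and 11.78 in MommeD43, a difference of 0.40 (SE 0.04). Adra2b (chr2:127323501-127391500, with Dusp2 and Astl) had 12.77 and 13.14, a difference of 0.37. Adra2c had 15.60 and 15.99, a difference of 0.38, in a domain of 451250 bp (chr5:35099601-35550850) that also covers Lrpap1, Hmx1 and Cpz and of which the 3445 bp gene is 0.763%. The adjusted differences of the 3 were 0.07, -0.02 and -0.00. Each whole gene lay within its region, but for Adra2b and Adra2c the reads of the gene and of the rest of the domain cannot be told apart.

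Adrb3, the beta receptor of fat cells, was the only one of the listed beta adrenoceptors with a region. The region chr8:27221001-27238450 overlaps Got1l1 and holds all 3 coding starts of Adrb3 though not its outermost start. It had 9.96 in WT and 10.43 in MommeD43, a difference of 0.47 (SE 0.06) and 0.30 after adjustment. Over the 11 regions of adrenoceptors the median difference was 0.11, and -0.02 after adjustment, -0.13 with equal column totals and -0.01 with the value trend removed.

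The muscarinic receptors held the highest difference of the set. Chrm4, a Gi-coupled receptor of striatal neurons, had 10.35 in WT and 11.35 in MommeD43 at chr2:91915701-91933900, a difference of 1.002 (SE 0.05). The density was 71.5 normalized counts per kb in WT and 143 in MommeD43. At 55.0% this was the receptor region of highest GC content, and similar regions had a median difference of 0.42, with quartiles of 0.21 and 0.63. The adjusted difference was 0.58. Chrm4 makes up 7.91% of the region, which also overlaps Ambra1, Mdk (the growth factor midkine) and Dgkz, and the region values do not show which of these genes carried the difference.

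Chrm2, the other Gi-coupled muscarinic receptor and the one that slows the heart, differed in the opposite direction. Its start region chr6:36381501-36395050 had 9.72 in WT and 9.32 in MommeD43, a difference of -0.40 (SE 0.07) and of -0.27 after adjustment. It was the only Gi-coupled region of 13 that was lower in MommeD43 (42.3% of autosomal regions were). The count of lower regions became 4 with equal column totals, where 67.1% of autosomal regions were lower. This count was 3 with equal autosomal medians or with the GC or the value trend removed. Chrm1 (chr19:8662551-8674150) had 8.31 and 8.28, and the Chrm5 flank (chr2:112483251-112489150) had 7.70 and 7.72. For Chrm5 a difference near 0 was itself above that of the neighbours, whose median at its low GC content (41.2%) was -0.39.

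By coupling, the median difference was 0.40 over the 13 Gi-coupled regions, 0.26 over 6 Gs-coupled, 0.17 over 4 channel regions and -0.05 over 10 Gq-coupled regions. After adjustment these became 0.07, 0.13, 0.12 and -0.10, a narrower range, and with equal column totals 0.16, 0.02, -0.07 and -0.29. Of the Gq-coupled regions 4 were higher and 6 lower (autosomal shares 57.7% and 42.3%), which became 1 and 9 with equal column totals (autosomal shares 32.9% and 67.1%) or with the value trend removed, 2 and 8 with equal autosomal medians and 3 and 7 with the GC trend removed. Of the 10 regions, 6 belong to Adra1a and Adra1b, so they share 2 genes. The groups were not tested against each other.

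**Figure D4:**
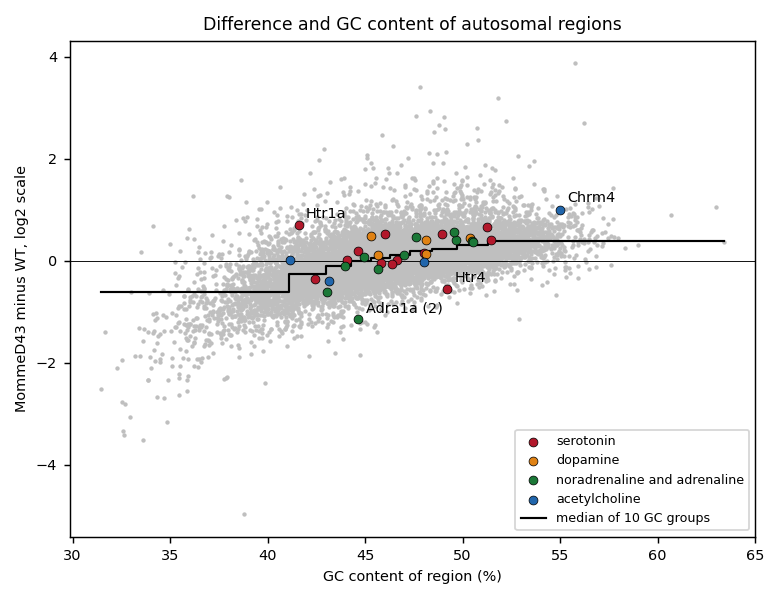
MommeD43 minus WT on the log2 scale against the GC content of the region in percent, for 11707 autosomal regions (grey) and the 33 receptor regions (coloured by transmitter), with the median difference in 10 groups of equal size by GC content (black steps). The median climbs from -0.61 to 0.39, and Htr1a and Chrm4 lie above it while Htr4 and the second region of Adra1a lie below it.

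Receptor regions at gene starts had higher differences than those elsewhere, with no test of the gap. The 24 regions that hold a start had a median difference of 0.39, with 18 higher and 6 lower, and the 9 others had a median of 0.02, with 5 higher and 4 lower. With equal column totals these became 14 higher and 10 lower at starts, and all 9 others lower. At equal totals 32.9% of all autosomal regions were higher and 67.1% lower, shares that were not split by position. At the deposited scaling the median was 0.17 in the 4908 autosomal regions that hold a protein-coding start, of which 67.7% were higher. It was 0.00 in the 6799 that do not, of which 50.4% were higher. The receptor counts at the deposited scaling lie near these shares by position. Regions at starts have more GC, and after adjustment the receptor medians were 0.06 and -0.02. The 3 regions within introns of Adra1a and Adra1b hold no exon bases. All were lower in MommeD43 (42.3% of autosomal regions were), with a median of -0.62. They stayed so under the 5 other scalings and corrections, though with equal column totals 67.1% of autosomal regions were lower. Their neighbours in GC content and value also had median differences below 0, of -0.08 for Adra1a and -0.16 and -0.09 for Adra1b. The Adra1b region with -0.11 was inside its counting interval and at -0.02 after adjustment.

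Comparison within a gene holds the gene fixed, and 6 receptor genes had both a start region and another region. This comparison was chosen after the values were seen. In 6 of the 6 the difference was higher at the start than the mean over the other regions of the gene, and also after adjustment, with a median gap of 0.38 (0.42 adjusted). Among 1200 other autosomal protein-coding genes with both kinds of region the start was the higher in 52%, or 46.2% after adjustment, and the median gap was 0.02 (-0.02 adjusted). The gap was largest in Adra1a, at 0.99 (95% counting interval 0.73 to 1.26). It was 0.51 in Htr5a (0.17 to 0.84), 0.39 in Htr3a (0.13 to 0.65), 0.36 in Drd2 (0.16 to 0.56) and 0.24 in Htr3b (0.02 to 0.47). In Adra1b the start exceeded the lower intronic region by 0.73 (0.51 to 0.95), whereas for the other intronic region (0.22, from -0.10 to 0.54) and the 3′ end (0.05, from -0.13 to 0.22) the interval included 0. After adjustment the Adra1b start was 0.41 above the first of these regions but -0.02 and -0.10 against the other two, so its place in the adjusted count rests on their mean. The 6 genes are few, and Htr3a and Htr3b are neighbours, as is Drd2 on the same chromosome.

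Of the enzymes that make and break down these transmitters, 7 of 12 had a region, where 42.6% of autosomal protein-coding genes did. They were Th, the rate-limiting enzyme of catecholamine synthesis, Dbh and Pnmt of noradrenaline and adrenaline synthesis, Tph1 of serotonin synthesis, Gch1 of cofactor synthesis, and Chat and Ache, which make and break down acetylcholine. Ddc, Tph2, Pts, Qdpr and Bche had none. Over their 9 regions, of which 3 belong to Chat, the median difference was 0.36 and the adjusted median 0.00. In MommeD43 8 were higher and 1 lower (autosomal shares 57.7% and 42.3%). The regions of Dbh and Pnmt span 165350 and 333950 bp, so their values are not of these genes alone. With equal column totals 5 of the 9 regions were higher and 4 lower (autosomal shares 32.9% and 67.1%), as Dbh, Gch1 and Ache turned. Tph1 was the lower one, with 11.31 in WT and 11.08 in MommeD43. At Th the values were 11.06 and 11.42. Chat had the highest difference of this list, in a region without its start (chr14:32420601-32427100) that had 6.84 in WT and 7.77 in MommeD43, a difference of 0.93 (SE 0.17).

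Transporters of the transmitters had a region in 8 of 9 genes (42.6% of autosomal protein-coding genes did), all but Slc5a7, the choline transporter. Their 11 regions had a median difference of 0.15 and an adjusted median of 0.03, with 7 higher and 4 lower (autosomal shares 57.7% and 42.3%). With equal column totals 4 were higher and 7 lower (autosomal shares 32.9% and 67.1%). The plasma membrane transporters for noradrenaline (Slc6a2), dopamine (Slc6a3) and serotonin (Slc6a4) were each higher in MommeD43 at the start, by 0.45, 0.22 and 0.37, though Slc6a3 was at -0.02 with equal column totals. The vesicular monoamine transporters were not, with -0.13 at Slc18a2 and -0.73 (SE 0.17) in a region of Slc18a1 away from its start. Slc18a3, the vesicular acetylcholine transporter, is nested in the Chat locus and shares its start region (chr14:32437251-32506900), which had 12.20 in WT and 12.91 in MommeD43. Of the low-affinity uptake transporters, Slc29a4 differed by 0.31, and Slc22a3 by 0.15 at its start and -0.09 further along. With equal column totals the start of Slc22a3 was also at -0.09. No enzyme or transporter region reached 1 in either direction.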

How the data were processed

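H3K27me3 ChIP-seq libraries were sequenced from 3 lines of each genotype, with 1 WCE library each. Per the labels, reads were processed with Trim Galore 0.4.4 and Bowtie2 2.3.4.1 on GRCm38.p6. According to the methods of the study, reads were extended by 150 bp, peaks were called per genotype on merged replicates against WCE, widened by 2.5 kb on each side and joined when less than 1 kb apart. The sources differ on whether chromatin was digested with MNase or sheared. The deposited values are log2 counts per region, which the authors scaled to total library size and averaged within a genotype, without division by length or subtraction of WCE. ChIP-seq scaled in this way gives shares of a library and not absolute amounts of the mark. Values of single libraries were not analysed here, so the count test planned for such values was not run.

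The antilog of 3 times a mean log2 count is a whole multiple of 1 constant per column. For products below 30000, whole numbers were met to within 0.1 in 1138 of 1139 regions in WT and in 681 of 684 in MommeD43. Each read counted as 3.27 normalized units in WT and as 2.63 in MommeD43. Poisson errors were computed from these reads. They cover counting error only, since reads lacked molecular identifiers and may repeat a molecule.

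Genes, starts and exons came from GENCODE mouse release 21, GC content from the GRCm38 sequence, and promoter windows from RefSeq. Region starts and ends are those of the coordinate columns. The members, lists and comparisons were chosen with earlier results of these data known. All members are named, with genes from lists on synthesis, transport, nicotinic, and trace amine and histamine receptors, of which 1 listed gene is not reported here. Alternatives changed scaling, GC and value trends over 40 bins, a pseudocount of 10, flanks, read minimum and the choice of neighbours. Computation used scipy 1.17.1, numpy 2.4.6 and pandas 2.3.3 in Python 3.11.15, and plots matplotlib 3.10.9.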

Additional observations from a re-analysis of the deposited data

How the results depend on the processing

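The median adjusted difference of the receptor regions, 0.05, ranged from -0.02 (regions without another protein-coding gene) to 0.06 over the alternatives. The unadjusted median of 0.13 was -0.11 with columns scaled to equal totals and 0.39 with only regions that hold a start, and it lay between -0.00 and 0.14 elsewhere. The count of regions at or over 1, which is 1 (Chrm4), was 0 with equal totals, with equal autosomal medians, with the value trend removed, with a pseudocount of 10 and without regions that overlap another gene. With the GC trend removed it was 1, but the region was Htr1a (1.02) while Chrm4 had 0.54. The count at or under -1, which is 1 (Adra1a), was 0 with only start regions, which leaves that intronic region out. With the GC trend removed 19 regions were higher and 14 lower, and with the value trend removed 16 and 17. Of the 33 regions 9 changed sign with equal totals, 7 with the value trend, 4 with the GC trend, 4 with equal autosomal medians (a shift of -0.08) and 0 with the pseudocount. Of those that changed sign, only the Htr3a region past the start had been outside its counting interval (-0.10, -0.04 and -0.03 with equal totals, value trend and GC trend). Genes with a region numbered 24 with the gene body alone and 25 with 20 kb flanks or with RefSeq genes. Regions under 50 kb and RefSeq genes were added after the data were seen. No paired analysis was possible because each genotype has 1 pooled column, and leaving out replicates was not run for the same reason. Depth limits Htr4 most, with a 95% counting interval from -0.89 to -0.24.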

Other observations

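Nicotinic receptors, the ion channels that answer acetylcholine beside the muscarinic receptors, had a region in 11 of 16 genes (42.6% of autosomal protein-coding genes did). The muscle subunits Chrnd and Chrng share a region (chr1:87139101-87215050) that had the highest density of this list, 134 normalized counts per kb in WT and 183 in MommeD43. Its log2 value was 13.31 in WT and 13.77 in MommeD43, a difference of 0.45 (SE 0.02) and of -0.02 after adjustment. Chrna7, the subunit of a homomeric neuronal channel, had the lowest difference, with 7.42 in WT and 6.77 in MommeD43, a difference of -0.65 (SE 0.17) and of -0.76 after adjustment. In the cluster of Chrna5, Chrna3 and Chrnb4 the differences had both signs. The start of Chrna5 had 10.92 in WT and 10.62 in MommeD43. A region that overlaps parts of both Chrna5 and Chrna3 had 9.08 and 8.63. The start of Chrna3 had 11.39 and 11.70, and the start of Chrnb4 had 9.10 and 9.04. Over the 11 regions the median difference was 0.27 and the adjusted median -0.02, with 7 higher and 4 lower (autosomal shares 57.7% and 42.3%). With equal column totals 6 were higher and 5 lower (autosomal shares 32.9% and 67.1%). The other regions lay at Chrna1 (0.29), Chrna2 (0.12), Chrna4 (0.27), Chrnb1 (0.37) and Chrnb2 (0.35). Chrna6, Chrna9, Chrna10, Chrnb3 and Chrne had no region.

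Among the trace amine and histamine receptors, Hrh2 and Hrh3 had regions and Taar1 and Hrh1 had none. Hrh3, a presynaptic inhibitory receptor, had 12.03 in WT and 12.58 in MommeD43, a difference of 0.55 (SE 0.03) and of 0.11 after adjustment. The regions of Hrh2 had 9.53 and 9.85, and 11.12 and 11.37. No difference in these lists reached 1, and none has a replicate check.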
